A study of Homo sapiens with 19 samples.

Results

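The integrin α6β4 receptor genes ITGA6 and ITGB4, the laminin-332 chain genes LAMA3 and LAMB3 and the p63 gene TP63 were described by the superenhancers and OCT-2 peaks at their loci in MDA-MB-231 breast cancer cells with and without forced OCT-2. These 5 genes were taken by name, and their positions came from RefSeq GRCh38.p14, which lists 20033 protein-coding genes on the chromosomes used. Superenhancers are broad regions of dense H3K27 acetylation, a histone mark of active promoters and enhancers, and OCT-2 (gene POU2F2) is a transcription factor that binds the octamer motif. The measurements were ChIP-seq of H3K27ac in 231Pa_Luc+OCT-2 cells, which are parental MDA-MB-231 cells with stable transgenes for luciferase and POU2F2, and in 231Pa_Luc+GFP cells, which have luciferase and GFP transgenes. ChIP-seq of OCT-2 was made in 231Pa_Luc+OCT-2 cells. Both populations are polyclonal and carry the luciferase transgene, and each group had 2 replicates. The series holds no OCT-2 ChIP of 231Pa_Luc+GFP, so no peak can be set against that control. Binding by the transgene's OCT-2 and by the cells' own cannot be told apart. The authors listed 518 superenhancers for 231Pa_Luc+OCT-2 and 337 for 231Pa_Luc+GFP, and 5736 OCT-2 peaks lie on the chromosomes used. Each list merges both replicates and holds positions only, so depth, peak height and the spread between replicates are unknown and no difference could be tested.

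Hemidesmosomes are the rivets that hold basal epithelial cells to the basement membrane. Integrin α6β4 spans the membrane, binds laminin-332 outside the cell and is tied to keratin filaments inside it through plectin. The α3 and β3 chains are parts of laminin-332, and p63 is the transcription factor that defines basal epithelial cells. MDA-MB-231 is a triple-negative line of mesenchymal character. Of 8 mesenchymal markers, 3 (VIM, AXL and CD44) lay within 10 kb of a superenhancer in 231Pa_Luc+OCT-2 and in 231Pa_Luc+GFP. The others, ZEB1, FN1, CDH2, SNAI2 and TWIST1, did not do so in either list. Of 8 luminal markers, 0 did so in either list. Of 8 basal markers, 3 did so in each list, the same number as of the mesenchymal markers. ITGB4 and LAMB3 were among them, while KRT5, KRT14, KRT15, KRT17 and TP63 were not. Of 6 leukocyte markers 0 did so in either list. Of 5 endothelial markers, 0 did so in 231Pa_Luc+OCT-2 and 1 (PECAM1) in 231Pa_Luc+GFP. Among all protein-coding genes, 5.75% lay within 10 kb of a superenhancer of 231Pa_Luc+OCT-2 and 4.31% within 10 kb of one of 231Pa_Luc+GFP. At such shares, 0 of so few markers says nothing about cell type.

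The promoters of these genes are shown first because the loci differ in whether a superenhancer covers them. Each sequence is the RefSeq stretch (GRCh38.p14) of 250 bases before to 50 bases after an annotated start, read on the gene's strand, and 7 starts were listed for 4 of the 5 genes. The capitals mark matches on either strand to AP-1 (TGANTCA), TEAD (GGAATG), the octamer ATGCAAAT or the octamer without its first letter (TGCAAAT, which every octamer contains and which was added after the sequences were seen).
ITGA6, first start, chr2:172427086-172427385, plus strand: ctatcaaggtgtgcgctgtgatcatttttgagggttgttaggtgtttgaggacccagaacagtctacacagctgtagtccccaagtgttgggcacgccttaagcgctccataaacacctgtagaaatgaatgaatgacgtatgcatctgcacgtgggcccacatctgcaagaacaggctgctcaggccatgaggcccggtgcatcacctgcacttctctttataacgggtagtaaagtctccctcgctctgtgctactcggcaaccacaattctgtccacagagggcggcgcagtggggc
LAMB3, innermost of 3 starts, chr1:209651325-209651624, minus strand: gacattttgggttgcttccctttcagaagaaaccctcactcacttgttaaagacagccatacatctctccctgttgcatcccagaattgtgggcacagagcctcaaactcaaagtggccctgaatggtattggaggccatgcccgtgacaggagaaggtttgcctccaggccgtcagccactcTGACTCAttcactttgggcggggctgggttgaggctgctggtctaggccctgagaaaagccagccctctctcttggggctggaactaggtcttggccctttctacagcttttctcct
LAMA3, chr18:23872770-23873069, plus strand: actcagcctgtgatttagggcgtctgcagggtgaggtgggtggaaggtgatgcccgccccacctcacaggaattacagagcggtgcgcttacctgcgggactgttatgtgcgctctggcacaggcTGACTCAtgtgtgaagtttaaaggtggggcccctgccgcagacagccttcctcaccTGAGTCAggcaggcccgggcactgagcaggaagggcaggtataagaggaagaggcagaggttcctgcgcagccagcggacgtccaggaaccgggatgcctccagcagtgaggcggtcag
TP63, chr3:189631139-189631438, plus strand: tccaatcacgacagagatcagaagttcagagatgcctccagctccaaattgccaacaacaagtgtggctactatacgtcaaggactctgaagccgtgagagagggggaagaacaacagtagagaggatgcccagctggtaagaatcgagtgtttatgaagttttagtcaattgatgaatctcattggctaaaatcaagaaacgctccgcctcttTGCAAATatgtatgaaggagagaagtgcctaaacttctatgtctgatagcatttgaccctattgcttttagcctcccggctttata
The LAMA3 promoter held 2 AP-1 matches, at 125 and 69 bases before the start. The innermost LAMB3 promoter held 1, at 67 bases before the start. AP-1 letters were present in 7.71% of the 35116 promoters of the table. The promoter at the only TP63 start listed held the shortened octamer 36 bases before that start, letters found in 4.2% of promoters. Promoters at other TP63 starts were not checked. None of the 7 member promoters held the whole octamer (1.77% of promoters), the TEAD letters (14.0%) or a p53 family response element (0.0171%). Neither ITGA6 promoter nor the outer LAMB3 promoters held any of the letters searched for. No OCT-2 peak overlapped any of these 7 windows.

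Of the 5 genes, 3 met a superenhancer of 231Pa_Luc+OCT-2 within 10 kb of the gene body (ITGA6, ITGB4 and LAMB3), and 2 met one of 231Pa_Luc+GFP (ITGB4 and LAMB3). Over all protein-coding genes the shares were 5.75% in 231Pa_Luc+OCT-2 and 4.31% in 231Pa_Luc+GFP. ITGA6 was the only member at a region that overlapped none of the control list, a class met by 1.93% of protein-coding genes, while ITGB4 and LAMB3 met regions that overlapped a control region, as did 3.87%. LAMA3 and TP63 met no superenhancer within 200 kb in either list. Most protein-coding genes met none at that distance, since 15.8% had one in 231Pa_Luc+OCT-2 and 11.8% had one in 231Pa_Luc+GFP. The same members were found with the gene body alone, where the shares of protein-coding genes were 5.27% in 231Pa_Luc+OCT-2 and 3.94% in 231Pa_Luc+GFP, with 1.75% at a region overlapping none of the control list and 3.56% at one overlapping it. They were also the same within 50 kb, against 7.92% in 231Pa_Luc+OCT-2, 5.81% in 231Pa_Luc+GFP, 2.72% at a region overlapping none of the control list and 5.35% at one overlapping it. Within 200 kb LAMB3 joined ITGA6 in having a region that overlapped none of the control list, as had 5.74% of protein-coding genes, and 10.9% had one overlapping it. The members had been chosen with earlier results of these lists known, so these counts describe the loci and support nothing about the group.

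**Figure D1:**
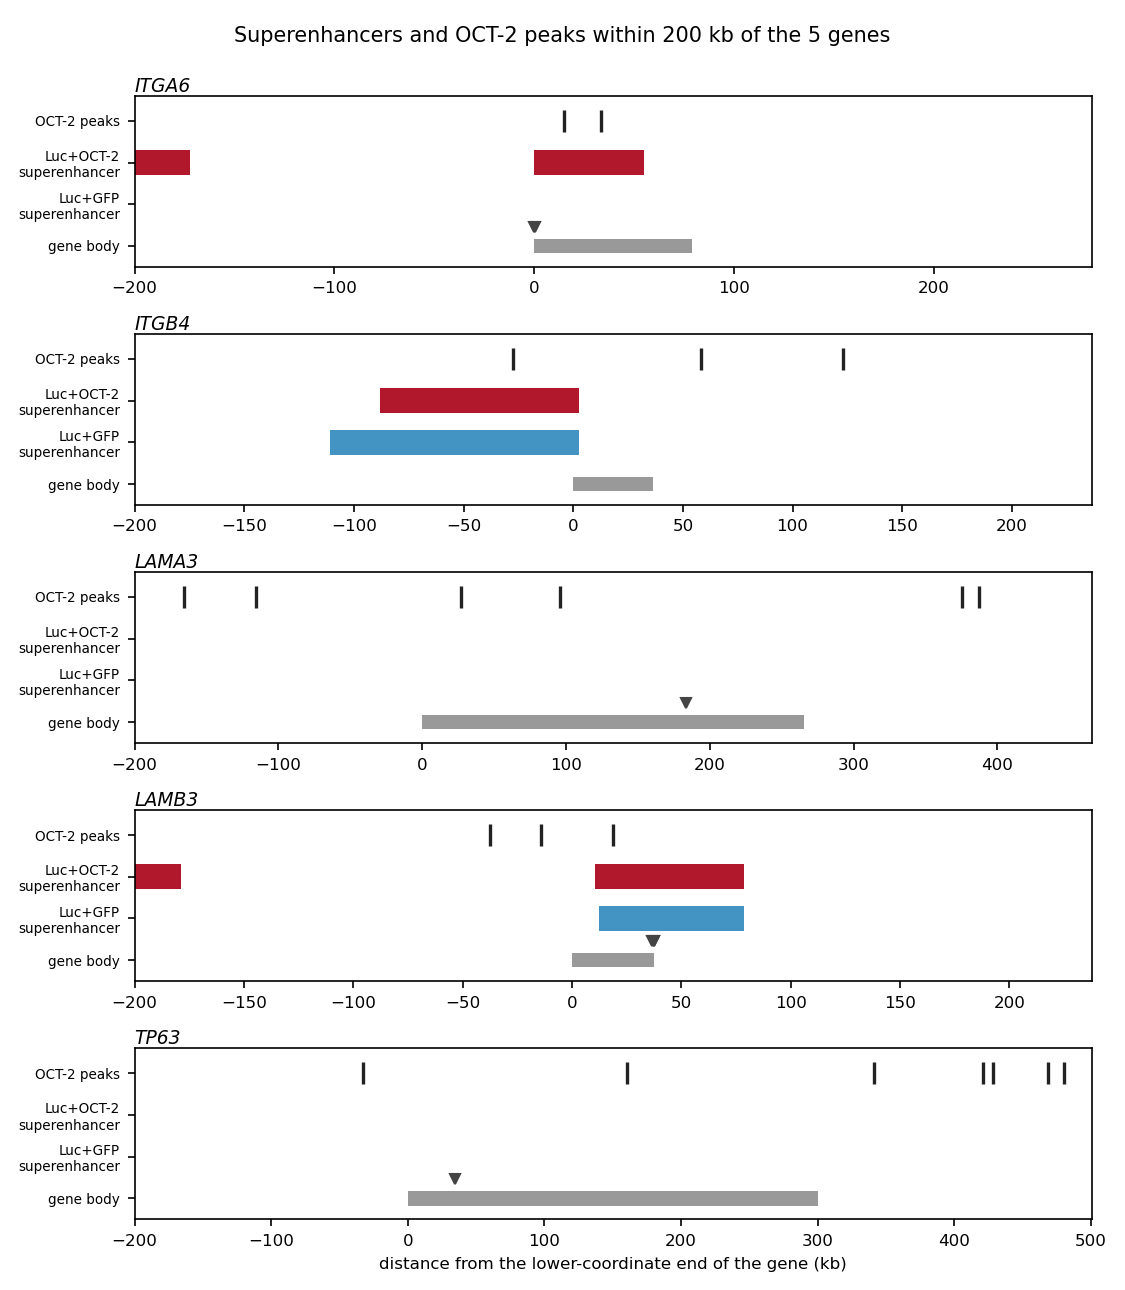
The 5 loci to scale, with distance in kb from the lower-coordinate end of each gene and each window ending 200 kb beyond the gene. Red bars are superenhancers of 231Pa_Luc+OCT-2, blue bars those of 231Pa_Luc+GFP, black ticks OCT-2 peaks, grey bars gene bodies and triangles annotated starts (none is listed for ITGB4); only ITGA6 has a red bar over the gene without a blue one, and LAMA3 and TP63 have peaks without bars.

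ITGA6 encodes the integrin α6 chain, which pairs with β4 in hemidesmosomes and with β1 elsewhere. In 231Pa_Luc+OCT-2 a superenhancer of 55.1 kb (hg38 chr2:172427047-172482153) began at −289 bases from the first annotated start, the lower-coordinate end of the gene. It covered both starts and 69.3% of the gene body of 79.1 kb, and ITGA6 was the only protein-coding gene in it. In 231Pa_Luc+GFP, 0% of the gene was covered, and the nearest superenhancer lay 27.8 Mb away, at SPATS2L. Most of the gene body therefore lay in a superenhancer of the OCT-2 list, while the gene lay far from any in the control list. The region was 1 of the narrower ones, at rank 409 of 518 by width. Regions as narrow were listed in the control cells too, where 39 of 337 (11.6%) were narrower than 55.1 kb. Among the 337 widest regions of 231Pa_Luc+OCT-2, which end at 69.6 kb, the ITGA6 region is absent, and so is the LAMB3 region of 67.8 kb, which the control list holds at 66.1 kb. The part of list length in the ITGA6 difference was not tested.

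The ITGA6 region held 2 OCT-2 peaks, both in the gene body. The first (chr2:172442106-172442497, 392 bp) lay 14.7 kb from the nearest ITGA6 start. The second (chr2:172460902-172461168, 267 bp) lay 33.4 kb from it and 4.99 kb from the start of ITGA6-AS1, the antisense transcript. That gave 36.3 peaks per Mb of region, against a median of 15.4 over the 204 regions of 231Pa_Luc+OCT-2 that overlap none of the control list. Those regions had a median width of 73.0 kb and a median of 1 peak, and 149 of them (73.0%) held a peak. The density at ITGA6 thus rests on 2 peaks in a narrower region. A further superenhancer of 231Pa_Luc+OCT-2 (chr2:172172417-172255199, 82.8 kb) lay 172 kb before the gene, overlapped no protein-coding gene and no control region, and held 0 peaks. No other OCT-2 peak was found within 200 kb of ITGA6.

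ITGB4 encodes the integrin β4 chain, whose long cytoplasmic tail carries the link to plectin. A superenhancer reached its lower-coordinate end in both cell populations, with a width of 90.9 kb in 231Pa_Luc+OCT-2 (chr17:75633165-75724082) and 114 kb in 231Pa_Luc+GFP (chr17:75610589-75724188). Most of each region lay outside the gene: 7.22% of the gene body of 36.4 kb was covered in 231Pa_Luc+OCT-2 and 7.51% in 231Pa_Luc+GFP. The edges on the ITGB4 side lay 106 bases apart, while the far edge reached 22.6 kb less far in 231Pa_Luc+OCT-2. The region met 5 protein-coding genes in 231Pa_Luc+OCT-2 (RECQL5, SMIM5, ERLN, SAP30BP and ITGB4) and 6 in 231Pa_Luc+GFP, with MYO15B added. Positions cannot tell which of these genes the acetylation belongs to.

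ITGB4 was the only member with 0 OCT-2 peaks within 10 kb, where the other 4 had 1 or 2 and 15.5% of protein-coding genes had at least 1. Within 50 kb it had 2 peaks. One of them (chr17:75693638-75693952) lay inside the shared superenhancer, 27.5 kb from ITGB4 and in the body of SAP30BP. The other (chr17:75779726-75779998) lay 21.9 kb beyond the gene, outside any superenhancer, with its middle 83 bases from the start of H3-3B, a gene for the replacement histone H3.3. The remaining peak within 200 kb lay 86.4 kb from ITGB4, in UNC13D.

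Of the 21 OCT-2 peaks within 200 kb of the members, only the H3-3B peak lay within 1 kb of a start in the promoter table. That table lists no start for ITGB4 and 1 each for LAMA3 and TP63, so other starts were not checked. The H3-3B promoter is therefore shown, with the octamer and the TEAD letters in capitals.
H3-3B, chr17:75779730-75780029, minus strand: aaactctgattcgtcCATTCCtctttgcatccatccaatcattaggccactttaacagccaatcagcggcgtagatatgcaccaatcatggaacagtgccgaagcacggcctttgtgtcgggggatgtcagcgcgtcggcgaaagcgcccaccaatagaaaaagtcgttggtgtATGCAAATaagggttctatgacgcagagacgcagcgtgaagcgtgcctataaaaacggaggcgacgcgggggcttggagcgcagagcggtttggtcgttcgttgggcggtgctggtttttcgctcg
The octamer stood 76 bases before the start (chr17:75779848-75779855) and 10 bases from the middle of the peak. The match describes the letters under the peak, and this promoter was chosen because the peak lies there.

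LAMB3 encodes the β3 chain, which occurs in laminin-332. Its superenhancer was nearly the same in both lists, 67.8 kb in 231Pa_Luc+OCT-2 (chr1:209625475-209693293) and 66.1 kb in 231Pa_Luc+GFP (chr1:209627238-209693305). The upper edges lay 12 bases apart and the lower edges 1.76 kb apart. All 3 annotated LAMB3 starts were inside the region in both lists, and 71.8% of the gene body of 37.6 kb was covered in 231Pa_Luc+OCT-2, against 67.1% in 231Pa_Luc+GFP. The region also met G0S2 and HSD11B1. Like that of ITGA6 it was not wide, at rank 347 of 518 in 231Pa_Luc+OCT-2 and 274 of 337 in 231Pa_Luc+GFP.

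A single OCT-2 peak lay in LAMB3 (chr1:209633461-209633845, 385 bp), 17.7 kb into the gene from its nearest start. This position was inside the superenhancer of 231Pa_Luc+OCT-2 and also inside that of 231Pa_Luc+GFP, so the acetylated domain was listed there with and without forced OCT-2. On the lower-coordinate side of the gene, 2 more peaks lay 14.0 and 37.2 kb from it, outside superenhancers, in CAMK1G and in the noncoding gene LOC107985256.

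At 179 kb from LAMB3, 231Pa_Luc+OCT-2 had another superenhancer (chr1:209353743-209436091, 82.3 kb) that overlapped no region of 231Pa_Luc+GFP. It met no protein-coding gene and contained MIR205HG and MIR205, the source of miR-205, a microRNA abundant in basal epithelium and known to repress ZEB1 and ZEB2. The hairpin lay 183 kb from LAMB3 and 195 kb from the nearest superenhancer of 231Pa_Luc+GFP. The region held 1 OCT-2 peak, 42.5 kb from the hairpin. Another basal microRNA gene, MIR944, lies inside TP63 and was in no superenhancer of either list. MIR4260 lies inside LAMB3, outside the part that superenhancers cover in either list. Mature sequences of these microRNA genes, which lie in or near LAMB3 and TP63, are shown with the seed (bases 2 to 8) in capitals.
miR-205-5p, chr1:209432166-209432187, plus strand: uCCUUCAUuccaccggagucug
miR-4260, chr1:209623482-209623500, minus strand: cUUGGGGCauggaguccca
miR-944, chr3:189829975-189829996, plus strand: aAAUUAUUguacaucggaugag
Their seeds differ, and their RNA levels are not in these lists.

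LAMA3 encodes the α3 chain, the part of laminin-332 that integrins bind. The gene body is long, at 265.6 kb, and 0% of it was covered by superenhancers in 231Pa_Luc+OCT-2 and in 231Pa_Luc+GFP. The nearest region of 231Pa_Luc+OCT-2 lay 370 kb away, at CABLES1, and overlapped no control region. In 231Pa_Luc+GFP the nearest was far along the chromosome, at DLGAP1 (chr18:3592550-3689812). LAMA3 had 2 OCT-2 peaks in its body, at chr18:23716590-23716829 and chr18:23784939-23785297. They lay 156 and 87.9 kb before the only LAMA3 start in the promoter table, which lies inside the gene. Its promoter is printed above, so the AP-1 letters there were not under a peak. From the lower-coordinate end of the gene, which the promoter table does not list as a start, the 2 peaks lay 27.3 and 95.7 kb. Of the 4 further peaks within 200 kb, 2 were in NPC1 on the lower-coordinate side, the farther of them also in RMC1, and 2 in TTC39C on the other. None of the 6 lay in a superenhancer.

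TP63 had no superenhancer nearby and, of the 5 genes, the most OCT-2 peaks within 200 kb, although only 1 within 10 kb. Its gene body of 300.5 kb was covered by 0% in both lists, and the nearest superenhancer lay 5.19 Mb away in 231Pa_Luc+OCT-2 and 7.39 Mb away in 231Pa_Luc+GFP. Within 200 kb there were 7 OCT-2 peaks, of which 1 lay in the gene (chr3:189756916-189757164), 126 kb downstream of the listed start. The flanking peaks nearest to the gene lay 32.5 kb from its lower end and 40.4 kb from its upper end, and neither met an annotated gene. The remaining 4 were in P3H2, a gene for a collagen-modifying prolyl hydroxylase, 120 to 180 kb from TP63. The only start listed for TP63 in the promoter table is the one printed above, so distances from other starts of the gene were not measured.

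**Figure D2:**
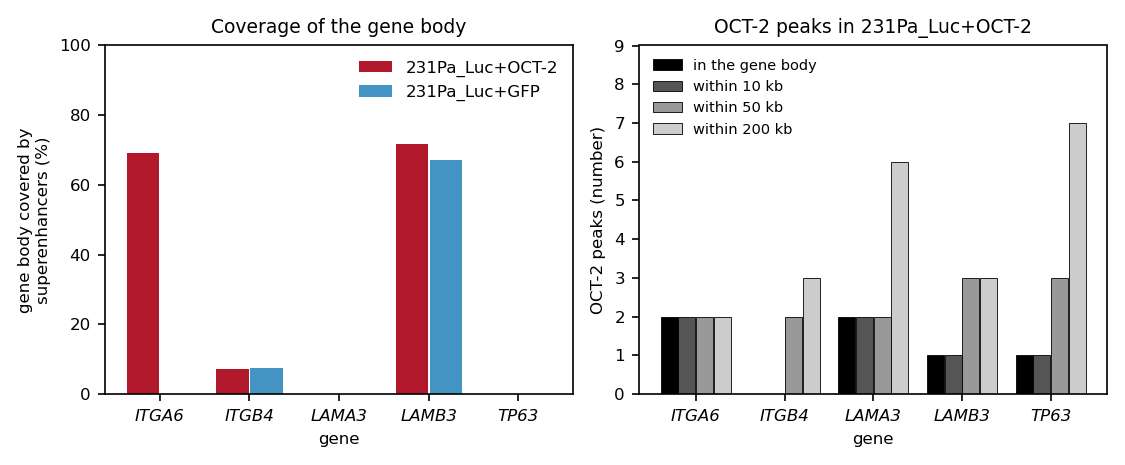
Left, the share of each gene body (in %) covered by superenhancers of 231Pa_Luc+OCT-2 (red) and of 231Pa_Luc+GFP (blue). Right, the number of OCT-2 peaks in the gene body and within 10, 50 and 200 kb; ITGA6 and LAMB3 are the most covered, at 69.3% and 71.8% in 231Pa_Luc+OCT-2, while TP63 and LAMA3 have the most peaks within 200 kb, 7 and 6, but not in the gene body, where ITGA6 and LAMA3 have 2 each.

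OCT-2 peaks and superenhancers were thus spread differently over the 5 loci. A peak lay in the gene body of 4 members (ITGA6, LAMA3, LAMB3 and TP63), against 10.7% of protein-coding genes. Length bears on this share: of protein-coding genes of 200 kb or more, the size of LAMA3 and TP63, 42.8% had a peak in the body, and of shorter ones 8.31%. Within 50 kb all 5 had a peak, against 28.9% of protein-coding genes, and within 200 kb all 5 again, against 58.1%. With the windows of 200 kb included, the peak density was 4.17 per Mb at ITGA6, 6.88 at ITGB4, 9.01 at LAMA3, 6.86 at LAMB3 and 9.99 at TP63. The median over protein-coding genes was 2.19 per Mb and the upper quartile 4.36, so ITGA6 fell just under that quartile and the other 4 above it. Of the 21 peaks, 4 lay in superenhancers of 231Pa_Luc+OCT-2, namely 2 at ITGA6, 1 at ITGB4 and 1 at LAMB3, and 17 lay outside. The width of the peaks had a median of 266 bp (239 to 405), against 267 bp over the whole list.

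**Figure D3:**
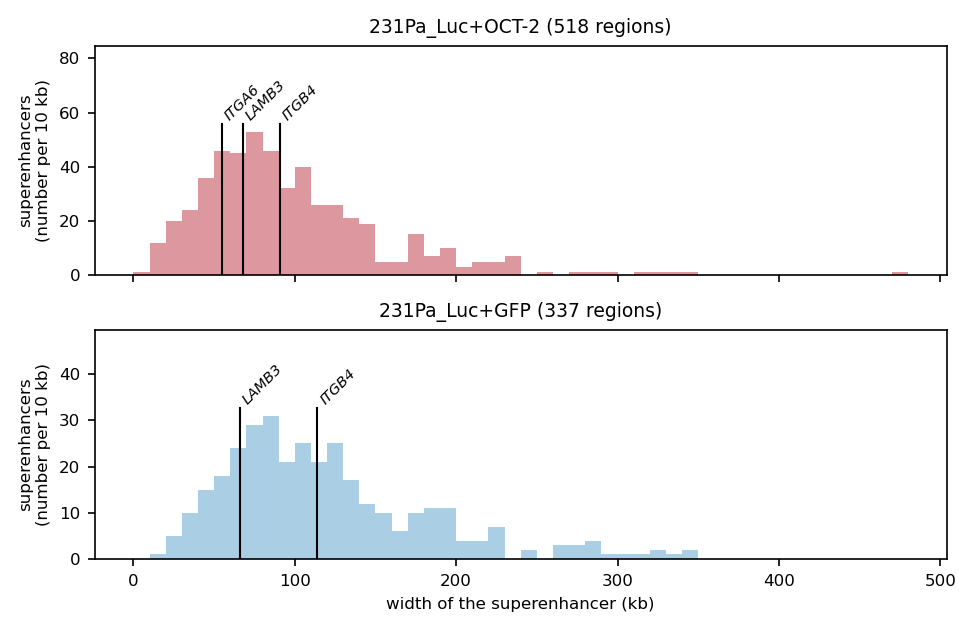
Widths in kb of all 518 superenhancers of 231Pa_Luc+OCT-2 (top) and all 337 of 231Pa_Luc+GFP (bottom), counted in steps of 10 kb, with black lines at the regions that meet a member. The regions at ITGA6 (55.1 kb) and LAMB3 (67.8 kb) lie below the median of 84.9 kb of 231Pa_Luc+OCT-2, and that of ITGB4 (90.9 kb) lies above it.

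The other genes of these structures were taken from lists of 49 genes, which include the 5 members. The lists were chosen, like the members, with earlier results of these data known. Most hemidesmosome genes of the list were at superenhancers in both cell populations. Of 6, with the members ITGA6 and ITGB4 counted again, 5 lay within 10 kb of a region in 231Pa_Luc+OCT-2 and 4 in 231Pa_Luc+GFP. The difference was ITGA6, and the shares of all protein-coding genes were 5.75% and 4.31%. PLEC, the gene of plectin, was covered over 80.0% of its body in 231Pa_Luc+OCT-2 and 79.4% in 231Pa_Luc+GFP. CD151, a tetraspanin that binds laminin-binding integrins, lay wholly in a region of 152 kb in each list, with 1 OCT-2 peak. DST, whose epithelial isoform is the plakin BP230, met 2 regions in each list, with 49.4% of its body covered in 231Pa_Luc+OCT-2 and 41.2% in 231Pa_Luc+GFP, and had 6 peaks within 10 kb. COL17A1, the gene of the transmembrane collagen XVII, met no superenhancer within 200 kb and had 1 peak within 50 kb.

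Genes of the other laminin-332 receptor, ITGA3 and ITGB1, lay at superenhancers in both lists, as did LAMB3 but not LAMA3. Within 10 kb, 5.75% of protein-coding genes met one in 231Pa_Luc+OCT-2 and 4.31% in 231Pa_Luc+GFP. ITGA3, whose α3β1 integrin also binds laminin-332, was covered over 100% of its body in both lists, with 1 peak in the region. The region at ITGB1 held 3 peaks and covered 32.9% of the gene in 231Pa_Luc+OCT-2 and 32.5% in 231Pa_Luc+GFP. ITGA3 had an OCT-2 peak within 10 kb, as had LAMA3 and LAMB3, and ITGB1 had 0.

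Of 9 other laminin chains, LAMA5 and LAMC1 lay at superenhancers in both lists, and only LAMA2 had a peak within 10 kb. Superenhancers covered 29.8% of the LAMA5 body in 231Pa_Luc+OCT-2 and 30.3% in 231Pa_Luc+GFP, but only 6.15% and 6.05% of LAMC1. Of 12 basement membrane and anchoring genes, AGRN (agrin) lay at a region of 231Pa_Luc+OCT-2 alone, of 67.6 kb, and HSPG2 (perlecan) at a region of 231Pa_Luc+GFP alone, of 64.6 kb, both with 0 peaks. COL7A1, the anchoring fibril collagen, and COL4A2 had a peak each without a superenhancer. Of 11 p63 family and p63-linked basal genes, SFN (14-3-3σ) lay at a shared region, and TP63 and the Notch ligand gene JAG2 had peaks. Of 6 basal keratin genes, 0 had a superenhancer of either list or a peak within 10 kb. Without the 5 members, 10 of 44 genes (22.7%) met a superenhancer of 231Pa_Luc+OCT-2, against 5.75% of all protein-coding genes. In 231Pa_Luc+GFP 10 met one, against 4.31%. In each list the region at LAMC1 also met another of the 44 genes, so it counts more than once. A peak lay within 10 kb of 8 of the 44 (18.2%), against 15.5%.

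**Figure D4:**
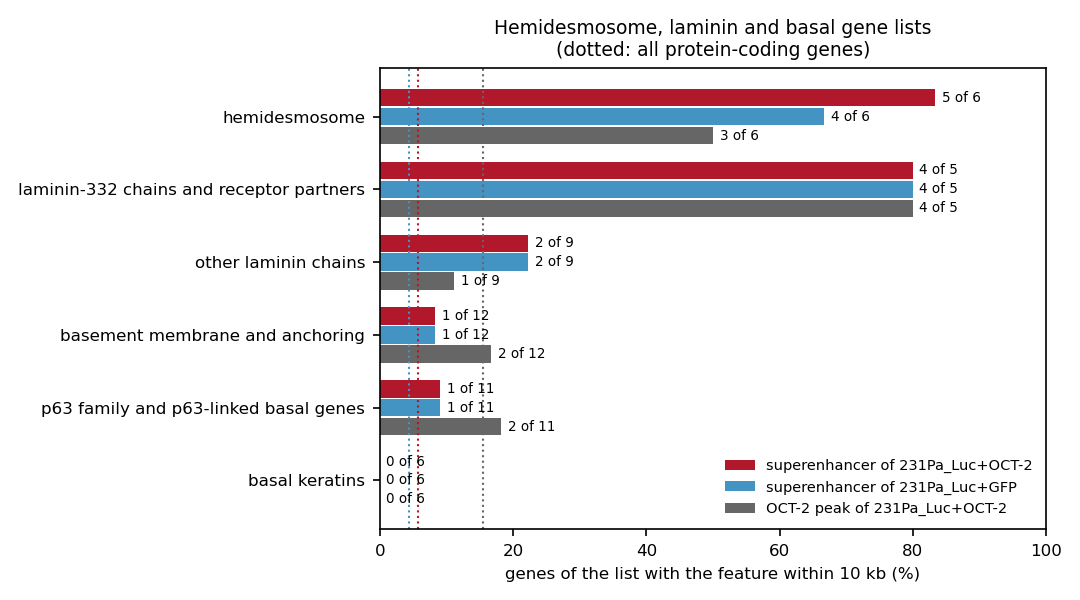
Share (in %) of the genes of 6 lists that lie within 10 kb of a superenhancer of 231Pa_Luc+OCT-2 (red), a superenhancer of 231Pa_Luc+GFP (blue) or an OCT-2 peak (grey), with the number of genes at each bar. The lists include the 5 members. Dotted lines give the share of all protein-coding genes, 5.75%, 4.31% and 15.5%; hemidesmosome genes reach 5 of 6 in 231Pa_Luc+OCT-2, and basal keratins 0 of 6.

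The genes most like each member were found over 5 values: the share of the gene with 10 kb on either side covered in each superenhancer list, and log2(1 + peaks) within 10, 50 and 200 kb, with absolute differences summed. Nearest to ITGA6 were BFSP1 (distance 0.129), IQCJ (0.14) and CMTM7 (0.334), each with 2 peaks and with cover in 231Pa_Luc+OCT-2 but 0% in 231Pa_Luc+GFP. Nearest to ITGB4 was CCDC88C (0.0224), covered over 23.6% in each list, followed by IQCN (0.123) and ANO1 (0.266), of which ANO1 had no cover in 231Pa_Luc+GFP. LAMB3 had no close match: DNMBP (0.594), DGLUCY (0.617) and ASB2 (0.675) came nearest. LAMA3 shared all 5 values with 8 genes on other chromosomes, of which CHN2, HMGA2 and LRRC1 are closest in length, and TP63 shared them with ATL1 and MYO16, followed by TGFB2 (0.193).

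How regions are assigned to genes matters for these loci. When each superenhancer counted for its nearest protein-coding gene alone, 1 member (ITGA6) remained in 231Pa_Luc+OCT-2 and 0 in 231Pa_Luc+GFP, since the regions at ITGB4 and LAMB3 meet several genes and count for the one whose middle is nearest. With as many of the widest regions of 231Pa_Luc+OCT-2 as the control list holds, 1 member (ITGB4) remained.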

How the data were processed

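ChIP used 5 µg of antibody and 15 PCR cycles, per the labels' protocols. Bowtie, Bowtie2 (2.2.2.6), bedtools and HOMER appear in the submitters' processing notes, with no role. The sources used here give neither calling method nor threshold. Interval lists were deposited: the authors made 10 of them, of which the 3 in hg38 by name were used: start and end positions merged from both replicates, with no read count, score or signal. The lists in hg19 or with no build in their name were not used, because no gene table of hg19 was used here. Of 5741 peaks, 5 on unplaced contigs were left out. Nothing gives separate cultures for the replicates.

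Regions and peaks were assigned to gene bodies extended by 0, 10, 50 or 200 kb (overlap of 1 bp or more), with RefSeq GRCh38.p14 positions and promoter and microRNA sequences; coordinates are 1-based. Strand came from the promoter table, which has no entry for ITGB4. No test was made, since no value per replicate exists. Counts are given beside the shares over 20033 protein-coding genes, which do not replace a test. The genes named are the 5 members, list genes within 10 kb of a feature, genes in the members' superenhancers and the 3 most alike genes per member; H3-3B, P3H2, the microRNAs and other neighbours of peaks were named after their values were seen. Members and lists were chosen with earlier results of these data known. Some genes of the lists are not reported here by name. Interval counting was tested on simulated intervals. Python 3.11.15, numpy 2.4.6, pandas 2.3.3 and matplotlib 3.10.9 were used.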

Additional observations from a re-analysis of the deposited data

How the results depend on the processing

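Of 21 alternative values for the 5 counts of the report, 15 stayed within 1.5 times of the reported count and 6 did not. Counting each superenhancer for its nearest protein-coding gene gave 1 member in 231Pa_Luc+OCT-2 (reported 3) and 0 in 231Pa_Luc+GFP (reported 2). Keeping only the 337 widest regions of 231Pa_Luc+OCT-2 gave 1 member at a superenhancer (reported 3), 0 at a region absent from the control list (reported 1) and 1 peak inside the members' superenhancers (reported 4). Extending genes by 200 kb gave 2 members at a region absent from the control list (reported 1), LAMB3 being added. Without extension, with 50 kb, with a stricter overlap for shared regions or with the middle of the peak, the counts recomputed stayed in that range, although 50 kb added ITGB4 to the members with a peak. No paired analysis was possible because the lists merge both replicates and hold no value per replicate; for the same reason no replicate could be left out. Depth is unknown, so a missing region or peak is a feature not listed by the authors, not evidence of absence.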

Other observations

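Beyond 10 kb, superenhancers reached several other genes of the lists, named here after their values were seen. KRT6B had 1 superenhancer of each list and 1 peak within 200 kb. LAMA2, the desmosomal plakophilin gene PKP1 and SPARC had a superenhancer within 200 kb in 231Pa_Luc+OCT-2 that overlapped no control region, and 0 in 231Pa_Luc+GFP, as did 5.74% of protein-coding genes for that class in 231Pa_Luc+OCT-2. POU2F2 itself was covered by a superenhancer over 42.8% of its body in 231Pa_Luc+OCT-2 and 42.6% in 231Pa_Luc+GFP.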
